A study of Mus musculus with 4 samples.

Results

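Skeletal muscle and myogenic genes were followed in primary fibroblasts from the skin of newborn mice, cultured with and without ADAM9, a membrane-anchored metalloprotease of the cell surface. The set holds 9 genes, out of 18193 named genes on the array. They are the myogenic regulators Pax7, Myf5, Myod1 and Myog, the endplate receptor gene Chrna1, the sarcomere genes Acta1, Tnnc1 and Tnnt2, and the ubiquitin ligase adaptor gene Asb5. Every probe set annotated to exactly 1 of them was taken, which gave 13 probe sets. The genes were chosen by name with the genotype differences of these same arrays already known, so their genotype differences are given as a description and carry no test.

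The groups were adam9 -/- fibroblasts (KO, n = 2 isolations) and adam9 +/+ fibroblasts (WT, n = 2 isolations), all taken at postnatal day 1. Per square plate of 10 cm, 1000000 cells were seeded, kept for 48 h without treatment, and each isolation was measured on 1 array. The labels do not say how the adam9 allele was made, whether an isolation came from 1 animal or several, or whether equal isolation numbers share a litter or a day. Spread between isolations may therefore be partly technical.

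Skeletal muscle cells arise in steps. Pax7 marks the muscle stem cell, Myf5 and Myod1 commit the cell to the muscle fate, and Myog drives the fusion and differentiation that switch on sarcomere genes and the acetylcholine receptor of the endplate. In mice a thin sheet of striated muscle lies under the dermis, so skin taken whole can hold myogenic cells. Fibroblasts grown on plastic also express contractile genes, mainly those of the smooth muscle type.

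Values are the deposited probe set values, taken as log2, and a difference of 1 means a factor of 2 if that base is right. No detection calls were used, so the 44 probe sets for olfactory receptors, genes of the nasal sensory neurons, served as a yardstick for low values. Their median was 3.04 and 3.16 in the KO arrays and 3.20 and 3.07 in the WT arrays, and their 95th percentile was 4.60 and 4.60 in the KO arrays and 4.48 and 4.62 in the WT arrays. Probes differ in affinity, so a value under the yardstick does not show that a transcript is absent. The median of all probe sets was above that percentile, at 4.87 and 4.83 in the KO arrays and 4.87 and 4.87 in the WT arrays. A value over the yardstick therefore does not show by itself that a transcript is present.

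The gene that defines the groups was lower in both KO arrays. Adam9 stood at 8.33 and 8.55 in the KO isolations, against 11.58 and 11.70 in the WT isolations (log2 difference -3.20, SE 0.147, limma adjusted p = 0.0242). No source used here says whether its probe set lies within the part of the gene that the adam9 -/- allele changes. All 13 dermal fibroblast markers, among them Col1a1, Pdgfra and Thy1, were above the 95th percentile of the olfactory receptor probe sets on every array. The arrays also differed in sex-linked RNA. Xist, expressed from the inactive X chromosome, stood at 10.38 and 10.40 in the KO arrays and at 4.29 and 4.32 in the WT arrays. The Y-linked gene Kdm5d stood at 2.36 and 2.33 in the KO arrays and at 7.66 and 7.06 in the WT arrays. Eif2s3y, also Y-linked, stood at 2.75 and 2.67 in the KO arrays and at 9.19 and 9.31 in the WT arrays. Genotype and sex-linked expression cannot be told apart here.

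Over all 13 probe sets, 4 were lower in both KO arrays than in both WT arrays, 4 were higher in both and 5 overlapped. Among all 45037 probe sets, 20.0% were lower and 19.5% higher without overlap. Only Asb5 and Acta1 were lower without overlap by at least 1 log2 unit, as were 0.986% of all probe sets. None of the 13 was higher by that much, against 1.35% of all probe sets. The median difference was -0.0064 over the 13 probe sets and -0.0027 over all probe sets. These counts rest on the contrast that was known when the genes were chosen, and nothing is read from them.

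**Figure D1:**
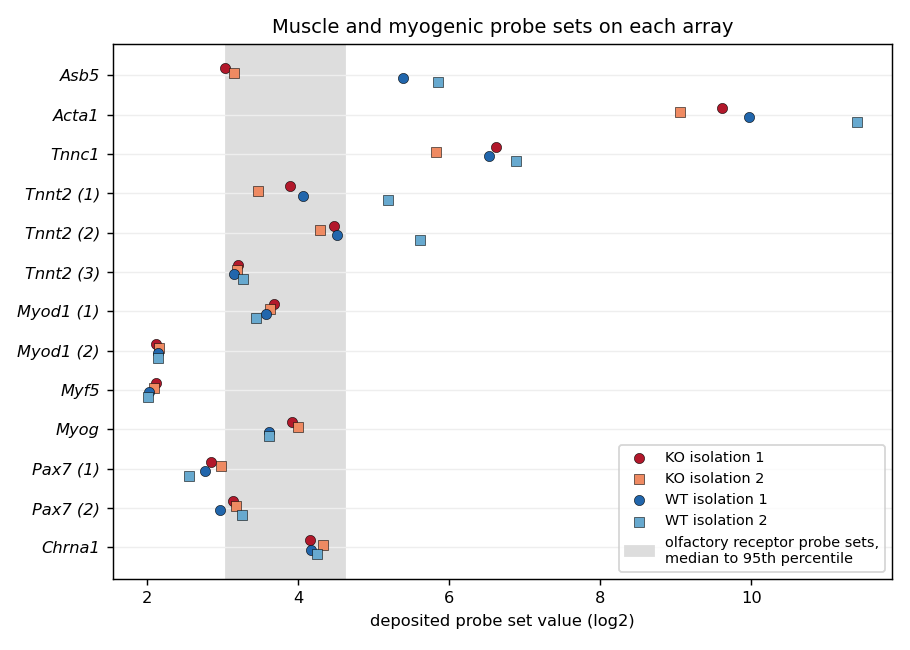
Deposited log2 value (horizontal axis) of the 13 probe sets of the 9 genes (rows) on each of the 4 arrays (points), numbered within a gene in the order used in the text. The grey band runs from the lowest median to the highest 95th percentile of the olfactory receptor probe sets, and every point of the regulators and Chrna1 lies in it or below it, while Acta1 and Tnnc1 lie above it on every array.

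The 4 myogenic regulators were low on every array. Their 6 probe sets ran from 2.01 to 4.0, and all 6 stayed under the 95th percentile of the olfactory receptor probe sets on all 4 arrays. No regulator probe set varied by over 0.43 log2 units across the 4 arrays.

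Pax7, the paired-box factor of satellite cells, had 2 probe sets. The first (1444596_at) stood at 2.85 and 2.98 in the KO arrays and at 2.76 and 2.56 in the WT arrays. The second (1452510_at) stood at 3.14 and 3.17 in the KO arrays and at 2.97 and 3.26 in the WT arrays. The genotypes did not overlap for the first and overlapped for the second, with mean differences of 0.26 and 0.043. Myf5, the earliest of the basic helix-loop-helix factors of the lineage, stood at 2.12 and 2.10 in the KO arrays and at 2.02 and 2.01 in the WT arrays. That is a difference of 0.092 at the bottom of the scale, although the genotypes did not overlap.

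Myod1, the factor that can turn fibroblasts into muscle cells when it is forced on, was likewise low by both probe sets. The first (1418420_at) stood at 3.67 and 3.62 in the KO arrays and at 3.58 and 3.45 in the WT arrays. The second (1447675_x_at) lay between 2.12 and 2.16 in all 4 arrays. Both KO arrays were above both WT arrays for the first, by 0.045 at the nearest, and the genotypes overlapped for the second. Myog, myogenin, stood at 3.92 and 4.0 in the KO arrays and at 3.61 in each WT array. Its mean difference of 0.35 was the largest among the regulators, and the KO arrays, with the higher values, still lay under the yardstick.

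Chrna1, which encodes the ligand-binding alpha subunit of the muscle acetylcholine receptor and is switched on by the regulators in muscle cells, was low as well. It stood at 4.16 and 4.32 in the KO arrays and at 4.17 and 4.25 in the WT arrays. The genotypes overlapped, and all 4 values were under the 95th percentile of the olfactory receptor probe sets.

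The sarcomere genes behaved otherwise. Acta1 and Tnnc1 were above the yardstick on every array, and all 5 probe sets of Acta1, Tnnc1 and Tnnt2 had their highest value in WT isolation 2. WT isolation 2 was the highest array for 26.5% of all probe sets. In 4 of the 5, KO isolation 2 was the lowest.

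Acta1, the skeletal muscle alpha-actin of the thin filament, stood at 9.62 and 9.06 in the KO arrays, against 9.97 and 11.40 in the WT arrays. WT isolation 2 was alone at the top, and the other 3 arrays spanned 0.91 log2 units. The means were 9.34 ± 0.394 (SD, n = 2) in the KO and 10.69 ± 1.01 (SD, n = 2) in the WT, a log2 difference of -1.35, or 2.55-fold lower. The WT isolations differed from each other by 1.43, which is more than the genotype means did. The nearest KO and WT arrays were 0.36 apart, and without WT isolation 2 the difference was -0.63. The coding sequences of the muscle actins are nearly alike, and signal from the paralogs Acta2, Actg2 and Actc1 in this probe set was not tested.

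Tnnc1 encodes the calcium-binding troponin C of slow skeletal and heart muscle. It stood at 6.62 and 5.82 in the KO arrays and at 6.52 and 6.88 in the WT arrays. The genotypes overlapped, because KO isolation 1 lay above WT isolation 1. The mean difference of -0.48 was smaller than the 0.80 between the KO isolations, and it was -0.080 without KO isolation 2.

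Tnnt2 encodes troponin T of the heart, which is also made by immature skeletal muscle. Its first probe set (1418726_a_at) stood at 3.89 and 3.47 in the KO arrays and at 4.07 and 5.19 in the WT arrays. The second (1424967_x_at) stood at 4.48 and 4.29 in the KO arrays and at 4.52 and 5.61 in the WT arrays. In both, WT isolation 2 stood apart, 1.12 and 1.10 above WT isolation 1, while WT isolation 1 was only 0.18 and 0.040 above KO isolation 1. The third probe set (1440424_at) lay between 3.16 and 3.28 on all arrays and did not follow the other 2. The first was above the yardstick in WT isolation 2 only, the second in the WT arrays only, and the third on 0 arrays. The mean differences were -0.95, -0.68 and -0.022 in that order, and the first 2 were -0.39 and -0.13 without WT isolation 2.

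Asb5 had the largest genotype difference of the 9 genes. It encodes an ankyrin repeat protein with a SOCS box, a class of adaptors that bring substrates to cullin-5 ubiquitin ligases, and its transcript is known from skeletal muscle. It stood at 3.04 and 3.15 in the KO arrays, against 5.38 and 5.85 in the WT arrays. Both KO values lay near the median of the olfactory receptor probe sets, and both WT values lay above their highest member, which was 4.97 and 4.99 in those arrays. The means were 3.09 ± 0.079 (SD, n = 2) in the KO and 5.62 ± 0.330 (SD, n = 2) in the WT, a log2 difference of -2.52. The isolations differed by 0.11 within the KO and by 0.47 within the WT, and the nearest KO and WT arrays were 2.24 apart. Leaving out 1 array at a time gave differences of -2.76 to -2.29. Because the KO values lie at the low end of the scale, the 5.75-fold linear ratio depends on a background level that is not known here.

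Asb5, Acta1 and Adam9 lie on chromosome 8 in the RefSeq annotation of GRCm38.p6, with 134 protein-coding genes between Adam9 and Asb5 and 665 between Asb5 and Acta1. The genes next to Asb5 were looked up after its values were seen. Spcs3, a signal peptidase subunit gene on one side, stood at 8.99 and 10.14 in the KO arrays and at 8.85 and 8.81 in the WT arrays. Vegfc, the lymphatic growth factor gene beyond it, stood at 9.42 and 9.37 in the KO arrays and at 8.86 and 8.15 in the WT arrays. Both were higher in the KO arrays without overlap, and neither passed the limma test (adjusted p = 0.551 and 0.384). On the other side, Spata4, Wdr17 and Gpm6a lay under the yardstick on all 4 arrays, with differences of 0.079, -0.17 and -0.18. The last 2 were lower in the KO arrays without overlap.

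**Figure D2:**
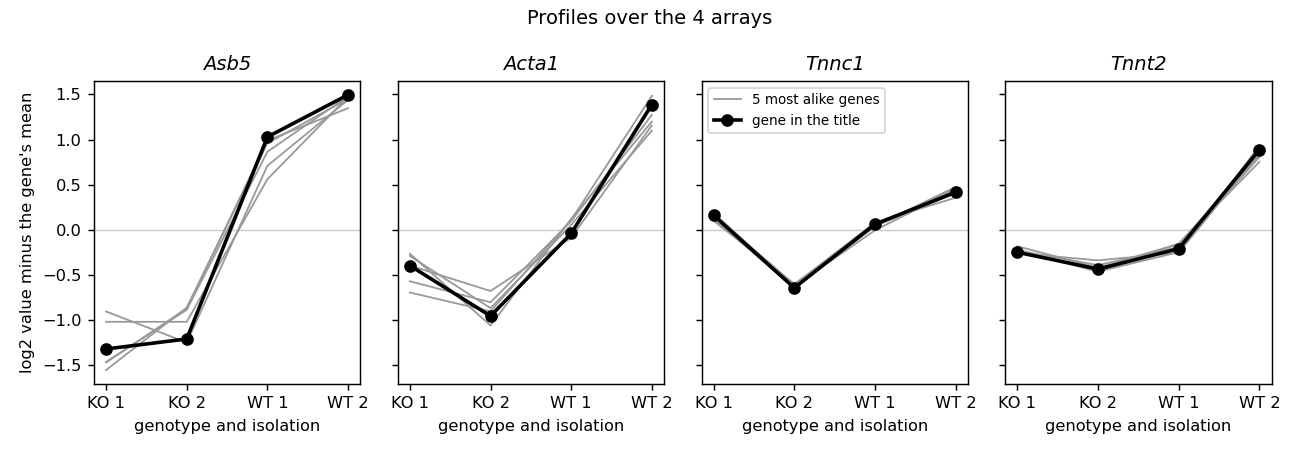
Log2 value minus the gene's own mean over the arrays (vertical axis) on the 2 KO and 2 WT arrays (horizontal axis) for 4 genes, each in black with the 5 tested genes of most similar profile in grey. Lines join the values of 1 gene and imply no order of isolations. Asb5 splits by genotype, while Acta1 and Tnnt2 stand apart mainly in WT isolation 2 and Tnnc1 in KO isolation 2.

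The genes with the profiles most like these were ranked by Euclidean distance between mean-subtracted log2 values over the 4 arrays. For Asb5 they were Lhx9, Rnf128, Brinp3, Fabp3 and Ntn4, at distances of 0.39 to 0.59. Lhx9, a LIM homeobox gene, stood at 4.92 and 5.50 in the KO arrays and at 7.25 and 7.86 in the WT arrays. Fabp3, the fatty acid-binding protein of heart and skeletal muscle, stood at 6.23 and 5.89 in the KO arrays and at 7.85 and 8.58 in the WT arrays. For Acta1 they were Actg2, Cnn1, Hspb7, Col7a1 and Plac8, at 0.29 to 0.36. Actg2 and Cnn1 encode the gamma-actin and the calponin of smooth muscle, and Hspb7 a small heat shock protein of heart and skeletal muscle. Actg2 stood at 9.83 and 9.60 in the KO arrays and at 10.50 and 11.67 in the WT arrays.

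For Tnnt2 the 5 were Ucn2, Bex3, Tg, Mllt11 and Cda, at 0.068 to 0.16, all with their highest value in WT isolation 2. For Tnnc1 they were Il18, Vmp1, Dnajb4, Plcb4 and Fbxo16, at 0.036 to 0.088, all with their lowest value in KO isolation 2. All of these genes were picked for their likeness, so a highest or lowest array shared with the member follows from the choice. With 4 arrays and 13271 genes, close profiles are easily found.

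Printed below are upstream sequences of the 4 genes above the yardstick on at least 1 array, and of Myog, a regulator below it. These sequences differ in their motif matches. They are the 250 bases before the annotated start, from RefSeq (GRCm38.p6), where 8 of the 9 genes had an entry. Capitals of 10 letters mark CArG boxes, the site of serum response factor, and capitals of 6 letters mark E-boxes (CANNTG), the site read by the myogenic regulators. Both strands were searched with no mismatch allowed, and no box overlapped another.
Acta1, chr8:123894776-123895025, minus strand: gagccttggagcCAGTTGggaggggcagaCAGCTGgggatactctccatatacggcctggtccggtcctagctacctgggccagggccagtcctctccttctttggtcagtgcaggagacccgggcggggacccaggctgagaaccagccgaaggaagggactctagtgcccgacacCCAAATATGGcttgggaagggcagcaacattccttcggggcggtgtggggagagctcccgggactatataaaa
Asb5, chr8:54550081-54550330, plus strand: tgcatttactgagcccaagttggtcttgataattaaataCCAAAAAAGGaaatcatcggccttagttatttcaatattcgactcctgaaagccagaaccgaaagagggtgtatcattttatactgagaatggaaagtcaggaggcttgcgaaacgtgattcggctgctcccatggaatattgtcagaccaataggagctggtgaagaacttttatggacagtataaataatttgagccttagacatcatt
Tnnc1, chr14:31208062-31208311, plus strand: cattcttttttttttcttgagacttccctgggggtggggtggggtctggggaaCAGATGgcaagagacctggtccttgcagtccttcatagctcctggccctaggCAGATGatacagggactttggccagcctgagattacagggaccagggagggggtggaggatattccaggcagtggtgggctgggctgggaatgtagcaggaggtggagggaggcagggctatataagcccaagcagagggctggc
Tnnt2, chr1:135836084-135836333, plus strand: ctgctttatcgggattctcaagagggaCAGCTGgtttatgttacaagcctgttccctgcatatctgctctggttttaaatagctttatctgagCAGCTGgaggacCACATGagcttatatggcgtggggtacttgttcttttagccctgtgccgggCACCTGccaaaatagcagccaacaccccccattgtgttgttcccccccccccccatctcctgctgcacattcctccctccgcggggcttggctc
Myog, chr1:134289754-134290003, plus strand: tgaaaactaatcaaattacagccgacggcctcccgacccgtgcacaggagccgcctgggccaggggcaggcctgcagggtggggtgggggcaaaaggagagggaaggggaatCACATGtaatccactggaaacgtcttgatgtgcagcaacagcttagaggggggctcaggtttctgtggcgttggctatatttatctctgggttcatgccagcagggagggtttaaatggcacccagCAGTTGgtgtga

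Acta1 has the CArG box CCAAATATGG, which begins 73 bases before the start, and 2 E-boxes at 238 and 221 bases. Asb5 has the CArG box CCAAAAAAGG at 211 bases and no E-box in this window. A CArG box was found in 1.47% of the 32841 windows of this length in the table and an E-box in 66.2%. Tnnt2 has 4 E-boxes, and Tnnc1 and Myog have 2 each. Among the members not printed, Chrna1 has 3 E-boxes and no CArG box, and Myf5 and Pax7 have neither box. Acta1, Tnnc1 and Tnnt2 also hold 1 M-CAT site each (CATTCC on either strand), read by TEAD factors and found in 12.6% of windows, at 46, 58 and 27 bases. A match is a run of letters and not a shown binding site, and Asb5 and Tnnt2 have further annotated starts.

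Markers of skeletal muscle cells lay on both sides of the yardstick. So did those of unrelated cell types, with 3 of 8 keratinocyte and 3 of 7 endothelial markers above it on all arrays. Of 10 myoblast markers, 4 were above the 95th percentile of the olfactory receptor probe sets on all arrays, namely Cdh15, Des, Megf10 (6.55 to 7.20 over the 4 arrays) and Fgfr4. The list's median was 4.28 and 4.43 in the KO arrays and 4.20 and 4.46 in the WT arrays, and its mean was 4.45 and 4.50 in the KO arrays and 4.38 and 4.43 in the WT arrays. The cadherin Cdh15, which adheres myoblasts to each other, lay between 5.44 and 5.52 on the 4 arrays and overlapped between the genotypes. Desmin, Des, the intermediate filament of muscle of all kinds, stood at 5.55 and 5.79 in the KO arrays and at 5.94 and 6.20 in the WT arrays.

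Of 14 markers of differentiated skeletal muscle, 6 were above the yardstick on all arrays, namely Acta1, Ckm, Mylpf, Tnni2, Atp2a1 and Mb. The other 8, among them the developmental myosins Myh3 and Myh8, the fast troponins Tnnt3 and Tnnc2 and the ryanodine receptor Ryr1, were under it on all arrays. The list's median was 4.04 and 4.0 in the KO arrays and 3.89 and 3.90 in the WT arrays. Myh3 stood at 3.51 and 3.70 in the KO arrays and at 3.25 and 3.06 in the WT arrays, all under the yardstick. Creatine kinase, Ckm, stood at 4.75 and 4.86 in the KO arrays and at 4.99 and 5.03 in the WT arrays. It was highest in WT isolation 2, as were Acta1 and, within a range of 5.04 to 5.15, Tnni2. Mylpf was highest in KO isolation 1, Mb in KO isolation 2 and Atp2a1 in WT isolation 1. Ckm and Mb (4.85 to 4.92) lay near the median of all probe sets. Of 6 heart muscle markers, Myh6, Nppa and Myl7 were under the yardstick on all arrays. Nkx2-5 was above it on 4 arrays, Mybpc3 on 3 and Tnni3 on 2, with values of at most 4.85.

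Other cell types did not move alike over the arrays. The median of 11 smooth muscle and pericyte markers was 7.49 and 6.92 in the KO arrays and 7.98 and 8.49 in the WT arrays, with its lowest value in KO isolation 2 and its highest in WT isolation 2. The mean of the same list was 8.74 and 8.03 in the KO arrays and 8.75 and 8.84 in the WT arrays. Of the same list, Kcnj8 stood at 8.38 and 5.97 in the KO arrays and at 5.86 and 4.30 in the WT arrays. Abcc9 stood at 7.49 and 6.48 in the KO arrays and at 5.49 and 3.45 in the WT arrays. Both of these genes were lowest in WT isolation 2, where the list's median was highest. The median of 12 macrophage markers was 9.13 in WT isolation 1, against 4.21 and 4.36 in the KO arrays and 4.62 in WT isolation 2. Macrophage markers were therefore highest in the other WT array than the one where Acta1 and Tnnt2 were. Dermal fibroblast markers had medians of 12.30 and 12.45 in the KO arrays and 12.38 and 11.72 in the WT arrays, lowest in WT isolation 2. The part of these cell type differences in the muscle gene values was not tested, and in bulk RNA fewer cells of a type and less RNA per cell cannot be told apart.

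**Figure D3:**
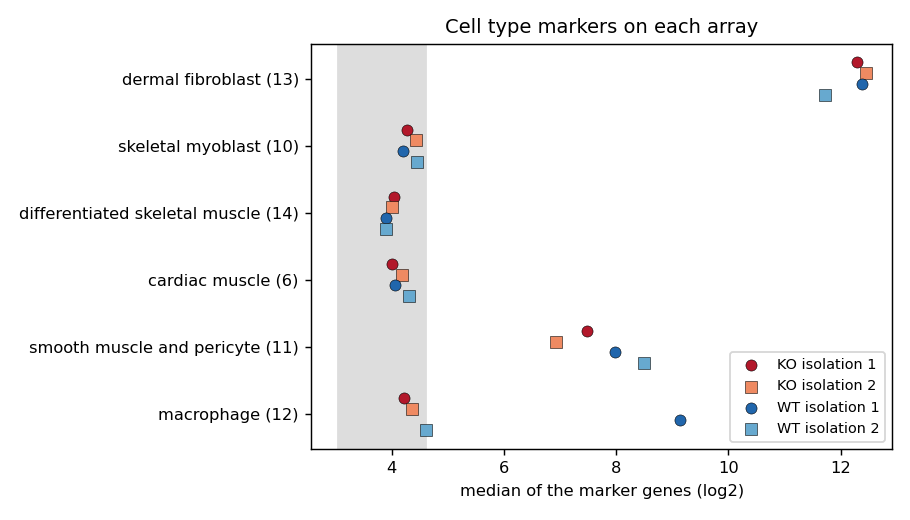
Median log2 value (horizontal axis) of the marker genes of 6 cell types (rows, with the number of genes) on each of the 4 arrays (points). The grey band runs from the lowest median to the highest 95th percentile of the olfactory receptor probe sets; both skeletal muscle lists lie within it on all arrays, the median of smooth muscle and pericyte markers is highest in WT isolation 2 and that of macrophage markers in WT isolation 1.

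Genes of the same pathways outside the 9 were tested over all 13271 genes. The limma test called 9 genes in all, 0.0151% of genes higher and 0.0527% lower in the KO. Among the called genes were Adam9 and the sex-linked genes Xist, Kdm5d and Eif2s3y. Of all genes tested, 11.4% had an unadjusted p under 0.05. None of the 7 wider lists held a called gene, and unadjusted counts are given for each. The median difference of all genes tested was 0.0027.

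Among 23 tested regulators of myogenesis, 12 had positive and 11 negative differences, with a median of 0.045. At an unadjusted p under 0.05 there were 4 higher and 2 lower. Meox2, a homeobox gene of the early somite and limb muscle, stood at 6.42 and 7.07 in the KO arrays and at 5.77 and 5.08 in the WT arrays (limma adjusted p = 0.339), and its 2 probe sets gave similar differences of 1.32 and 1.37. Eya1, a cofactor of sine oculis homeobox factors upstream of the regulators, stood at 6.25 and 6.69 in the KO arrays and at 7.89 and 7.13 in the WT arrays. Its 3 probe sets differed, from -1.04 to 0.0050, and the value of -1.04 was -0.66 without WT isolation 1. Cdon, a surface coreceptor that promotes myoblast differentiation, differed by 0.79 (0.48 without WT isolation 2, and 0.18 by its other probe set). Mef2a, a partner of the regulators at muscle promoters, differed by -0.53, with -0.82 to -0.17 over its 6 probe sets. Mef2c and Meox1 overlapped between the genotypes, and Mef2c stood at 6.67 in WT isolation 1 and 5.21 in WT isolation 2.

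The 18 tested myoblast and satellite cell genes had a median of 0.021, with 1 higher and 2 lower at an unadjusted p under 0.05. Itga7, the laminin receptor subunit of muscle fibres, stood at 5.92 and 5.82 in the KO arrays, against 6.72 and 6.93 in the WT arrays (limma adjusted p = 0.188). Sdc3, a heparan sulfate proteoglycan of satellite cells, differed by -0.82, and by as little as -0.030 in another of its 3 probe sets. Notch3 differed by -1.04, and by -0.26 without KO isolation 2. Its other probe set gave -0.43, with overlap between the genotypes. Cd34 stood at 7.85 and 9.29 in the KO arrays and at 7.90 and 7.52 in the WT arrays, and its difference of 0.86 was 0.13 without KO isolation 2. Met and Ncam1 overlapped between the genotypes by their tested probe sets. The 7 probe sets of Ncam1 gave -0.71 to -0.048, and 3 of them were lower in the KO without overlap.

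The 26 tested sarcomere genes, out of 54 on the array, had a median of -0.11, with 16 negative and 10 positive differences. At an unadjusted p under 0.05, 4 were lower and 1 was higher. WT isolation 2 was the highest array for 12 of the 26. Ldb3, a Z-disc protein gene, stood at 5.54 and 5.30 in the KO arrays and at 6.52 and 7.54 in the WT arrays (difference -1.61, limma adjusted p = 0.299), and its 3 probe sets, all lower without overlap, gave -1.61 to -0.31. Myom1, of the M-band, stood at 4.03 and 3.75 in the KO arrays and at 4.63 and 5.40 in the WT arrays, a difference of -1.13 that was -0.75 without WT isolation 2. Both KO values of Myom1 lay under the yardstick. Eno3, the muscle enolase, stood at 7.13 and 6.27 in the KO arrays and at 7.09 and 8.21 in the WT arrays, and its difference of -0.94 was -0.38 without WT isolation 2. These 3 genes had their highest value in WT isolation 2 and their lowest in KO isolation 2. Cox6a2, a respiratory chain subunit of striated muscle, differed by 0.73, and Actn3 and Mylpf overlapped between the genotypes.

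The 21 tested genes of the endplate and of excitation-contraction coupling had a median of -0.059, with 1 higher and 1 lower at an unadjusted p under 0.05. Jph2, which ties the sarcoplasmic reticulum to the surface membrane, stood at 7.24 and 7.76 in the KO arrays and at 8.34 and 9.08 in the WT arrays (limma adjusted p = 0.352), and both of its probe sets were lower without overlap. Cacna2d1, a calcium channel subunit, was lower without overlap in all 5 of its probe sets, with differences of -0.91 to -0.30, and the tested one of -0.71 was -0.32 without KO isolation 1. Fxyd1, phospholemman, a regulator of the sodium pump, differed by 0.79. Lrp4, the agrin receptor, differed by -0.53, and by -0.075 without KO isolation 2, and was above the yardstick on only 2 arrays. Chrnb1, the beta subunit that assembles with the Chrna1 product, stood at 5.75 and 6.65 in the KO arrays and at 6.46 and 6.82 in the WT arrays, and like Chrna1 it overlapped between the genotypes. Asph overlapped as well by its tested probe set. Its 6 probe sets gave -0.43 to 0.29, and 1 of them was lower in the KO without overlap.

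Among the 17 tested genes of the ASB family and its cullin-5 complex, the median was -0.064, and 1 was lower at an unadjusted p under 0.05. The largest differences were those of Asb4 (-0.57, and -0.30 without WT isolation 2), Asb2 (-0.52) and Asb9 (-0.39, and -0.17 without KO isolation 2), beside -2.52 for Asb5. Asb4 was above the yardstick on only 1 array and Asb9 on 3, so their values lay near the low end. Asb2, an adaptor that targets filamins in muscle, stood at 4.73 and 5.05 in the KO arrays and at 5.27 and 5.56 in the WT arrays (limma adjusted p = 0.430). Asb1 differed by -0.19 (-0.10 without KO isolation 2), and its 4 probe sets ran from -0.28 to 0.21. Asb18 and the elongin gene Elob overlapped between the genotypes.

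The 9 tested heart muscle genes had a median of -0.052, with 1 lower at an unadjusted p under 0.05. Hand2, a transcription factor of the heart and limb, differed by -0.58. Its 3 probe sets gave -0.58 to -0.18, and 1 of them was lower in the KO without overlap. Tbx20 and Gata4 differed by 0.24 each under the yardstick. Other probe sets of these 2 genes gave -0.011 and -0.0011, and the value for Gata4 was 0.14 without KO isolation 1. Nppb, the B-type natriuretic peptide, stood at 4.79 and 4.87 in the KO arrays and at 4.53 and 6.37 in the WT arrays, with WT isolation 2 alone high, as for Acta1 and Tnnt2. Its difference of -0.62 was 0.30 without that array. Actc1, the heart alpha-actin, ranged from 5.25 to 5.74, also with its highest value in WT isolation 2, and Tbx5 overlapped between the genotypes.

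The 13 tested smooth muscle genes, listed with earlier results of these data known, all lay on the lower side in the KO (median difference -0.76). Lower without overlap were 12 of the 13, against 20.0% of all 45037 probe sets. The 2 shares are not alike, since the 13 genes passed the filter with 1 probe set each and the 45037 were not filtered. The share over the tested genes was not taken. At an unadjusted p under 0.05, 7 of these genes were lower and 0 higher. Myh11, the smooth muscle myosin heavy chain, stood at 6.55 and 5.48 in the KO arrays and at 8.71 and 9.57 in the WT arrays (limma adjusted p = 0.189), a difference of -3.12, with -0.93 by its other probe set. Synpo2, Kcnmb1, Actg2, Cnn1 and Lmod1 differed by -2.03, -2.01, -1.37, -1.32 and -1.10. Without WT isolation 2 the values for Actg2, Cnn1 and Lmod1 were -0.78, -0.78 and -0.69. Without KO isolation 2 the values for Synpo2 and Kcnmb1 were -1.02 and -1.38. In KO isolation 2 these 2 genes lay under the yardstick, at 4.51 and 4.33. Other probe sets gave differences as small as -0.51 for Synpo2 and -0.46 for Kcnmb1. WT isolation 2 was the highest array for 9 of the 13.

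**Figure D4:**
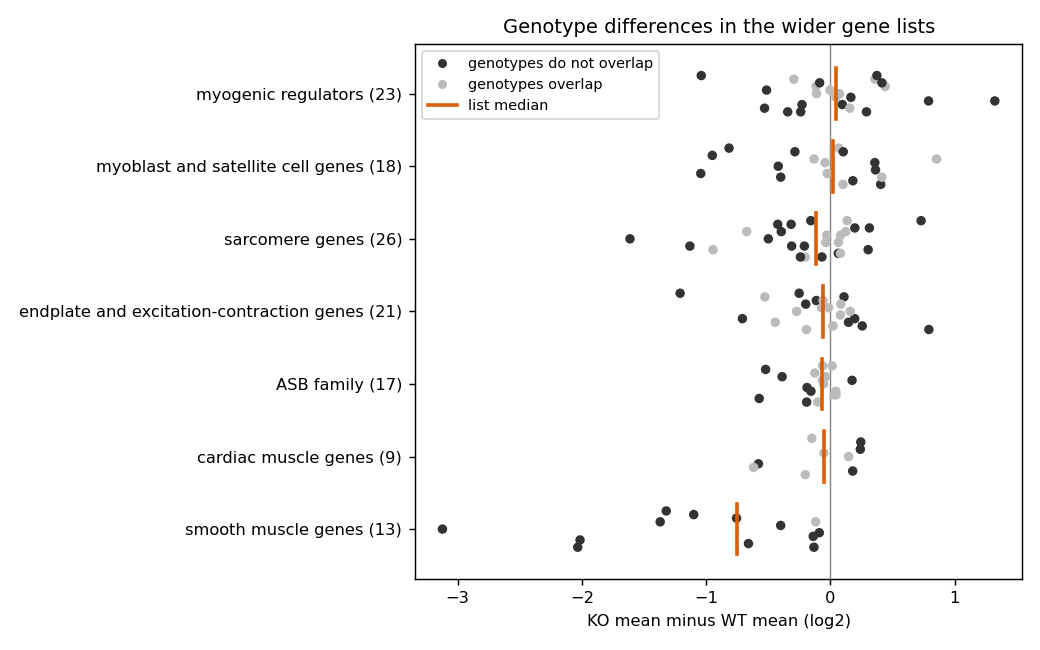
KO mean minus WT mean in log2 units (horizontal axis) for each tested gene (points) of the 7 wider lists (rows, with the number of genes tested); dark points are genes whose genotypes do not overlap and bars are list medians. The skeletal and heart muscle lists are centred near 0, with medians from -0.11 to 0.045, and the smooth muscle list has a median of -0.76.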

How the data were processed

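Biotin-labelled RNA of 4 fibroblast isolations was hybridised to 1 expression array each. Per the submitters' processing notes, the deposited values, 1 for each probe set on each array, came from Affymetrix Expression Console. No source used here gives its version, the summary algorithm or the log base. The authors' values were read as log2 because of their range and nearly equal distributions. The number of arrays limits the precision.

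Of 45101 probe sets, 64 were controls, 34945 others named 1 gene, 932 several and 9160 none in the platform annotation. Symbols were updated by Entrez identifier through RefSeq (GRCm38.p6). The member genes and lists were chosen with earlier results of these data known. For the test over all genes, each gene took its probe set with the highest mean. Genes above 4.17, the 40th percentile over non-control probe sets, were fitted with limma 3.58.1 in R 4.3.3 (lmFit, eBayes, no block, 2 residual and 2.38 prior degrees of freedom). Benjamini-Hochberg adjustment ran over 13271 genes, and calls were made at 0.05. Of the 9 members, 5 passed this filter (Asb5, Acta1, Tnnc1, Tnnt2 and Chrna1). Asb5, with a KO mean of 3.09, passed through the WT arrays alone. The procedure was tested on simulated data.

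Named were all members and, in each wider list, the 4 tested genes with the largest genotype difference and 2 more with the largest difference between isolations. For 4 members the 5 genes of closest profile were named. Marker genes and the neighbours of Asb5 were named beside them after their values were seen. The motifs were chosen after the data were seen. As alternatives, the isolation number was added as a block, filters, normalizations and probe set choices were changed, and each array was left out.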

Additional observations from a re-analysis of the deposited data

How the results depend on the processing

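The count of called genes was 9, and it was 2 with the isolation number as a block. It was 9 with no filter and 10 under each of 3 other normalizations. A filter at the 60th percentile, the mean over probe sets, and leaving out _x_at and _s_at probe sets each gave a count of 6. Without any 1 array it was 0 in each case. Deviations of same-numbered isolations correlated across genes at 0.116, and with 2 isolations per genotype whether the numbers pair the isolations is not known. Counts of probe sets without overlap were 9027 lower and 8768 higher in the KO. They were 14771 to 16708 and 14852 to 16288 with 1 array left out, where fewer values have to be separated. Of the 13 member probe sets, 9 kept their sign under 3 other normalizations and with each array left out; the others were the third of Tnnt2, the second of Myod1, the second of Pax7 and Chrna1, all with differences under 0.05.

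List medians moved as follows; except for the filters, whose gene numbers are given, the cause was not tested. With a filter at the 60th percentile they were 0.11 for regulators (14 genes), -0.087 for myoblast genes (12), -0.36 for sarcomere genes (8), -0.19 for endplate genes (7) and -0.22 for heart genes (2). With no filter they were -0.025 for myoblast genes (23), -0.0073 for sarcomere genes (54) and -0.019 for endplate genes (32). With the mean over probe sets they were -0.025 for myoblast, -0.049 for sarcomere and -0.15 for heart genes. Without _x_at and _s_at probe sets the myoblast median was -0.025. With 1 array left out the medians ran from -0.025 to 0.11 for regulators, -0.010 to 0.029 for myoblast, -0.11 to -0.042 for sarcomere, -0.11 to 0.017 for endplate, -0.17 to -0.014 for ASB, -0.094 to 0.049 for heart and -1.10 to -0.52 for smooth muscle genes. Signal near the olfactory receptor level limits what the regulators' values can show.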
